A study of Mus musculus with 12 samples.

Results

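Smooth muscle cells were set against intermediate cells, as labelled by the submitters, over all genes. Both populations came from flow cytometric sorting of digested aorta and perivascular adipose tissue, the fat that surrounds the vessel, of wild type CD-1 pups of both sexes at 3 days of age. The comparison used the 3 smooth muscle and the 3 intermediate libraries by their titles, which are 6 of the 12 libraries of the series, and the 6 libraries of progenitor cells and preadipocytes entered only where said. The labels name no transgene or treatment, and both groups were dissociated with collagenase D and Dispase II and sorted. The labels refer to the study's manuscript for the gates, so the surface markers that defined each group are not given here. The labels do not state whether replicates are separate litters or separate sorts, and p-values then measure only the spread between these libraries, which may be technical.

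Smooth muscle cells contract through actin, smooth muscle myosin and the proteins that anchor them to the membrane and the matrix, and many of these genes are driven by serum response factor with its coactivator myocardin at CArG boxes, short DNA elements that the factor binds. In the growing aorta these cells also build the elastic lamellae, whose core is elastin. Hedgehog ligands act on fibroblast-like and mural cells of the vessel wall through the receptor Patched, which releases Smoothened and the Gli transcription factors; Ptch1, Gli1 and Hhip are known targets of the same pathway.

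Total counts ran from 11701825 to 15550623 per library, and 19320 of 36512 genes passed the filter on low counts. At an adjusted p under 0.05 (edgeR's quasi-likelihood test, Benjamini-Hochberg over all genes tested), 8475 genes (43.9%) were called, 4230 (21.9%) higher and 4245 (22%) lower in smooth muscle. A change of at least 2-fold was found for 3069 genes higher (15.9%) and 1214 lower (6.28%), the median log2 fold change over all genes tested was 0.02, and the libraries of both groups did not overlap for 10380 genes (53.7%). The scaling bears on direction: TMM factors were 0.817 to 0.852 in intermediate and 1.19 to 1.22 in smooth muscle libraries, and the 10 most abundant genes took 27.0% to 28.0% and 14.3% to 15.5% of counts. Without these factors, by library size alone, the median moved by 0.54 and 10920 genes were called higher and 1395 lower, so that the share called higher went from 49.9% to 88.7%. Changes below are relative to the TMM scaling, and a gene with a log2 fold change between about -0.54 and 0 changes sign with library size alone. The summed level of 1223 olfactory and vomeronasal receptor genes, which these cells should not use, was 133 to 345 CPM in intermediate and 774 to 1117 CPM in smooth muscle libraries by library size alone. Low levels that are higher in smooth muscle may thus hold some of this background. With an even background subtracted, 3604 genes were called higher and 3444 lower of 17002 tested. Levels are CPM after TMM scaling, values for the 3 libraries stand in the order of replicates 1, 2 and 3, fold changes are log2 of smooth muscle over intermediate with their standard error (SE), and means are given with their SD (n = 3 libraries per group).

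The gene lists differed widely in the share and direction of their calls. Every count of list members called below stands beside shares of 21.9% higher and 22% lower over all genes tested. Of 47 lists, those of contractile, neuronal and mesothelial genes had nearly all tested members higher in smooth muscle, and those of collagens, elastic fibre genes, secretory pathway genes and Hedgehog genes had most members lower. In bulk samples, fewer cells of a type and less RNA per cell cannot be told apart. Marker lists of mesothelium and of Schwann cells and neurons, cells of the tissue around the vessel, were higher in all 3 smooth muscle libraries, and their part in other genes that were higher there was not tested.

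**Figure D1:**
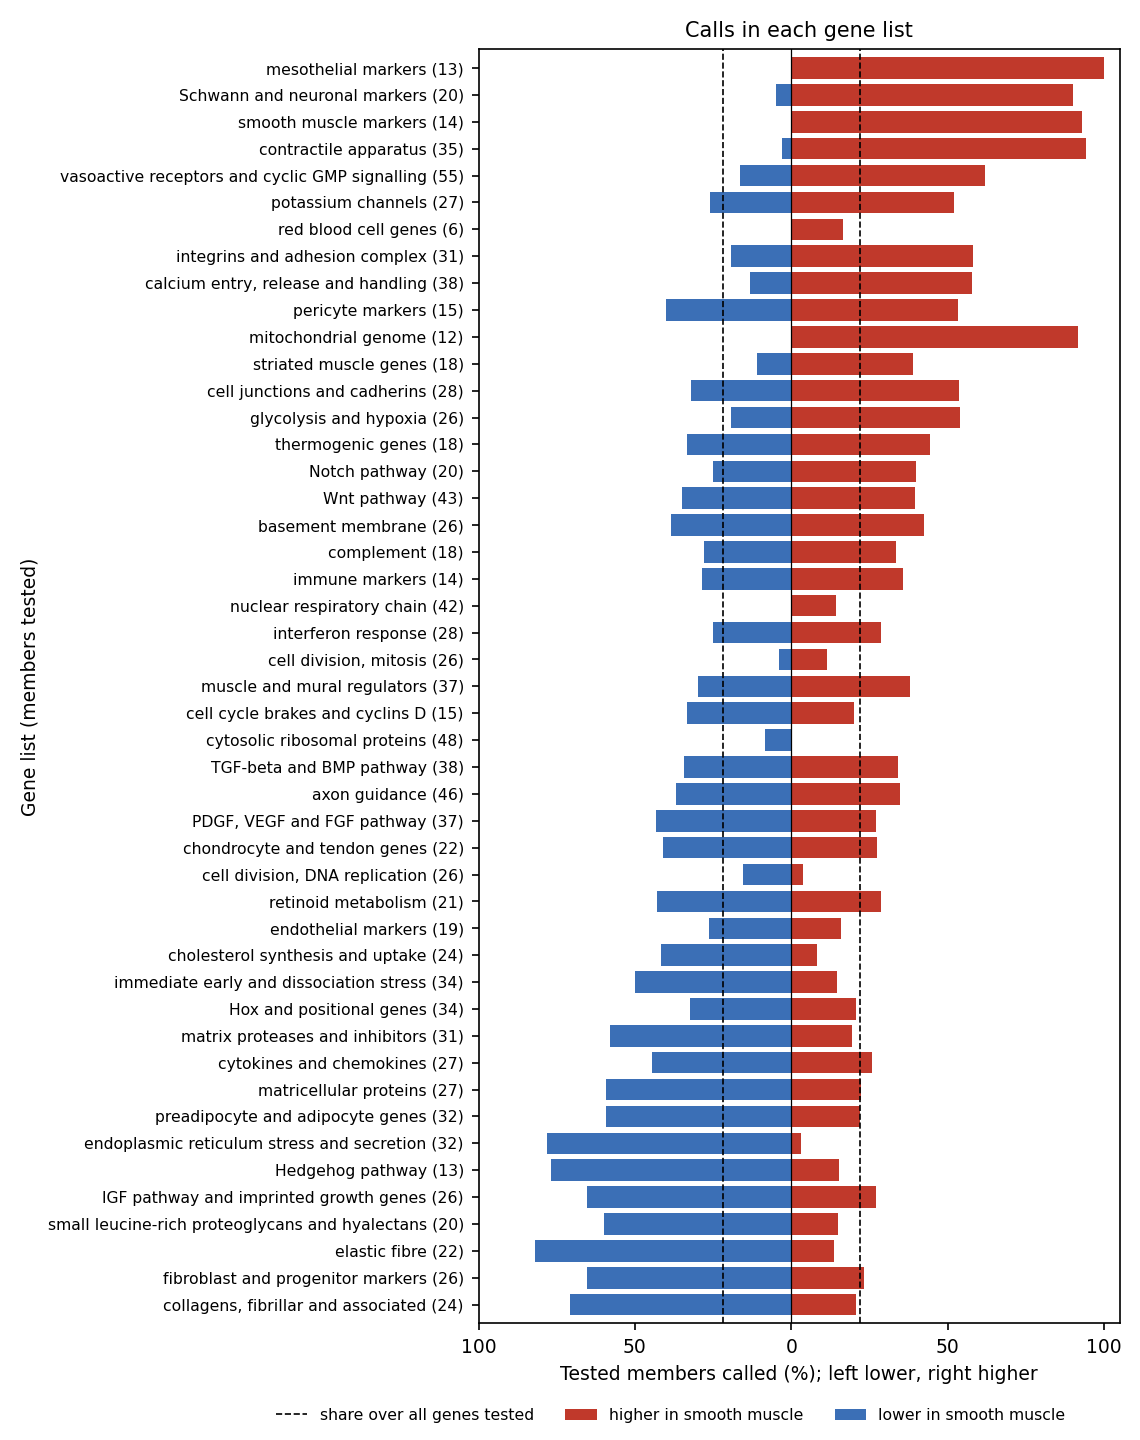
Share of each list's tested members called lower (left, blue) or higher (right, red) in smooth muscle at an adjusted p under 0.05, in percent, for 47 gene lists with the number tested in brackets, ordered by median log2 fold change. Dashed lines mark the share over all 19320 genes tested, 22% lower and 21.9% higher; all 13 mesothelial markers lie on the right, and by library size alone the bars of several lists with small changes, such as ribosomal proteins and proteases, shift to the right.

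The label of the smooth muscle libraries was checked against markers of that cell type. Of 14 markers tested, 13 were higher in smooth muscle and 0 lower, with a median log2 fold change of 2.92. Acta2, smooth muscle actin, stood at 814, 631 and 599 CPM in intermediate and 5469, 5089 and 5219 CPM in smooth muscle libraries. Every smooth muscle library was above every intermediate library, with a log2 fold change of 2.95 ± 0.12 (adjusted p = 8.81e-11, edgeR). Acta2 (ENSMUSG00000035783) lies at chr19:34241090-34255590, minus strand of mm10. Myh11, smooth muscle myosin heavy chain and the most restricted marker of the cell type, was at 147, 121 and 76.2 CPM in intermediate and 1272, 1199.8 and 877 CPM in smooth muscle libraries. The groups did not overlap and the log2 fold change was 3.28 ± 0.20 (adjusted p = 4.68e-09). The intermediate libraries thus held Acta2 and Myh11 transcripts at 682 and 115 CPM on average, well above the limit of 0.193 to 0.256 CPM that a count of 0 allows in these libraries.

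Within the contractile apparatus, 33 of 35 tested genes were higher and 1 was lower in smooth muscle, and the median log2 fold change was 2.04. The single lower member was Mylip, which encodes a ubiquitin ligase acting on the LDL receptor, at 63.9 to 30.7 CPM. Pgm5, a protein of adhesion plaques, did not pass the test (log2 fold change 0.34 ± 0.33, adjusted p = 0.428), and its sign turned without intermediate replicate 3 (-0.035). Cnn1, which encodes calponin, an inhibitor of myosin ATPase, was at 40.9, 30.7 and 25.4 CPM in intermediate and 305, 301 and 292 CPM in smooth muscle libraries. All smooth muscle libraries lay above all intermediate ones, 9.26-fold on the fitted scale. Mylk, the kinase that switches on smooth muscle myosin, rose from 42.2 to 254 CPM, its regulatory light chain Myl9 from 421 to 1532 CPM, and Lmod1, an actin nucleator of smooth muscle, from 8.99 to 64.9 CPM.

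The size of the difference was uneven across the apparatus. The smallest increases called were those of Pdlim7, an actin-associated adaptor, with a log2 fold change of 0.40 ± 0.09, and Smtn, smoothelin, with 0.41 ± 0.09. Cald1, caldesmon, was higher at 0.95 ± 0.10, Tpm1, tropomyosin, at 1.22 ± 0.09, and Flna, the actin crosslinker filamin A, at 1.27 ± 0.14. The intermediate filament genes Des, desmin, and Synm, synemin, were higher at 3.06 ± 0.19 and 2.56 ± 0.17. Of 3 small heat shock protein genes in the list, Hspb6 and Hspb1 were higher at 2.91 ± 0.14 and 3.00 ± 0.16, and Cryab at 0.46 ± 0.11. Per kilobase of annotated exon, Acta2 was at 310.3 CPM in intermediate and 2395 CPM in smooth muscle, against 40.6 and 248 CPM for Actg2, the enteric form of smooth muscle actin. Actins have near-identical coding sequences, so reads may have been split between them in a way the counts do not show. Tagln, which encodes SM22 and is among the most abundant transcripts of arterial muscle, was at only 1.89, 1.65 and 2.47 CPM in intermediate and 7.29, 9.13 and 10.9 CPM in smooth muscle libraries. Of its 1988 exon bases, 1349 overlap exons of Pcsk7 and Gm48529 in GENCODE M21, so its level in this table is uncertain.

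**Figure D2:**
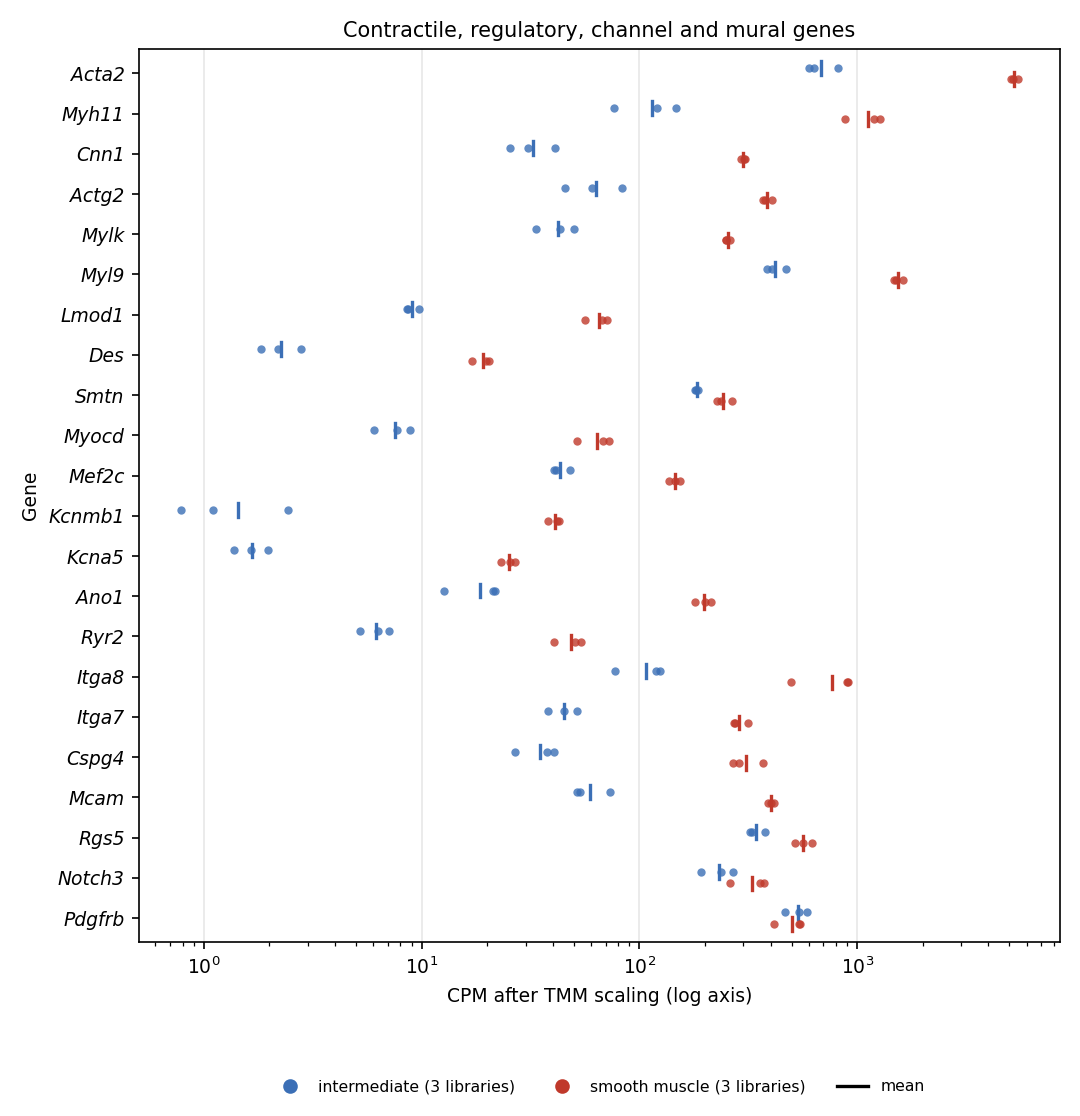
CPM after TMM scaling (log axis) of muscle genes in the 3 intermediate (blue) and 3 smooth muscle (red) libraries, with the mean of each group as a bar. Myh11 and Cnn1 show no overlap between groups, while Notch3 and Pdgfrb overlap; the sign of Pdgfrb turns by library size alone.

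Promoters of contractile genes are shown because serum response factor, with its coactivator myocardin, is known to bind CArG boxes. In the 250 bases before RefSeq starts (GRCm38.p6), a CArG box, spelled CC, then 6 letters that are A or T, then GG (a palindromic pattern, so both strands are covered), was present in 482 of 32851 promoters (1.47%) and in 5 of 35 promoters (14.3%), from 4 genes, of the 29 of 35 contractile genes that have an entry among the RefSeq promoters. With at most 1 G or C among the 6 inner letters, it was present in 2823 promoters (8.59%) and in 10 of the 35 (28.6%), from 9 genes. The exact form is counted within the looser one. The sequences shown come from promoters that hold a box, and those of Cnn1, Lmod1 and Mylk held none in either form. Boxes are in capitals, sequences run 5′ to 3′ on the gene's strand, and the Myl9 and Vcl windows end before the first exon of the gene in GENCODE M21. Myl9 is at chr2:156775214-156775419 on the plus strand, Vcl, which encodes the adhesion plaque protein vinculin, at chr14:20929148-20929397 on the plus strand, and the Acta2 sites at chr19:34255438-34255467 and chr19:34255388-34255417 on the minus strand. The RefSeq start of Acta2, at 34255373, lies inside the first GENCODE exon of the gene, chr19:34255290-34255590, so that both Acta2 sites are before the RefSeq start and within that exon.
Myl9: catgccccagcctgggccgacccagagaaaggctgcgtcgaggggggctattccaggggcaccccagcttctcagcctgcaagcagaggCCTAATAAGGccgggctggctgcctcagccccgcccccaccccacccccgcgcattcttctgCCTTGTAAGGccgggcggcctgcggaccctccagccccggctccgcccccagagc
Vcl: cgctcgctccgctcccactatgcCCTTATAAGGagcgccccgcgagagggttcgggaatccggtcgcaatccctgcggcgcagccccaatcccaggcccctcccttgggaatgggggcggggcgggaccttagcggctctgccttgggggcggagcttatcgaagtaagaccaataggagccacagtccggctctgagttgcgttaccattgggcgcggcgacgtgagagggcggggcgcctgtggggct
Acta2, farther site: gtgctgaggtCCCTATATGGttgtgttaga
Acta2, nearer site: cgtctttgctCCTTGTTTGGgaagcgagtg
The Myl9 window holds an exact box 161 bases and a looser one 99 bases before the RefSeq start, counted to the first base of the box. Vcl holds an exact box at 227 bases, and the 2 Acta2 boxes, at 84 and 34 bases, each have 1 G or C inside. A match of letters is a description and no measure of binding. Vcl itself was at 121 ± 20.4 CPM in intermediate and 327 ± 89.8 CPM in smooth muscle libraries, 1.43 ± 0.18 on the log2 scale.

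Transcription factors of mural cells moved in both directions, with 14 of 37 higher and 11 lower (25 higher and 7 lower by library size alone). Myocd, which encodes myocardin, was at 7.72, 8.80 and 6.04 CPM in intermediate and 72.4, 68.2 and 51.8 CPM in smooth muscle libraries. No intermediate library reached the smooth muscle range, and the log2 fold change was 3.08 ± 0.17 (adjusted p = 1.12e-09). Its partner Srf did not pass the test (-0.19 ± 0.11, adjusted p = 0.165), nor did the related coactivator Mrtfa (-0.15 ± 0.11, adjusted p = 0.317); both signs were positive by library size alone. Mef2c, a muscle and vascular factor, had a log2 fold change of 1.75 ± 0.10, and the T-box genes Tbx2 and Tbx18 2.51 ± 0.15 and 1.10 ± 0.12. Gata4, a heart and mesothelial factor, was at 0.486 and 9.94 CPM. On the other side, the homeobox gene Meox2, linked to quiescence of vascular cells, was at 119.7, 116 and 109 CPM in intermediate and 7.29, 9.51 and 5.54 CPM in smooth muscle libraries. Every intermediate library was above every smooth muscle library, 15.3-fold on the fitted scale (adjusted p = 7.57e-11). Ebf2, a factor of adipose commitment and mural cells, was lower at -1.79 ± 0.11, and so was Fhl2, a cofactor of serum response factor, at -1.93 ± 0.11. Klf4, which opposes the contractile programme in cultured muscle cells, was at 363 to 256 CPM with a log2 fold change of -0.50 ± 0.15, which turns positive by library size alone. This call was lost without smooth muscle replicate 1 (-0.41, adjusted p = 0.0607) or 2 (-0.38, adjusted p = 0.0632).

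Genes of the electrical and calcium apparatus of arterial muscle were mostly higher. Of 27 potassium channel genes tested, 14 were higher and 7 lower (17 and 5 by library size alone). Kcnmb1, the beta subunit that tunes the large-conductance calcium-activated channel of smooth muscle, was at 2.43, 0.786 and 1.10 CPM in intermediate and 41.99, 42.9 and 37.9 CPM in smooth muscle libraries. The groups were far apart, 28.8-fold on the fitted scale (adjusted p = 4.74e-10), and the pore subunit Kcnma1 was higher by 1.97 ± 0.13 on the log2 scale. The voltage-gated channel Kcna5 went from 1.67 to 25.1 CPM, its auxiliary subunit Kcnab1 from 7.37 to 81.02 CPM and Kcnh2 from 1.89 to 29.8 CPM. Kcnj8, the pore of the vascular ATP-sensitive potassium channel, had the opposite direction, with 109, 109 and 120.4 CPM in intermediate and 21.9, 19.95 and 29.7 CPM in smooth muscle libraries. All intermediate libraries were above all smooth muscle ones, with a log2 fold change of -2.25 ± 0.14, while its sulphonylurea receptor subunit Abcc9 differed by -0.44 ± 0.16, a value that turns positive by library size alone. The call on Abcc9 was lost without intermediate replicate 1 (-0.42, adjusted p = 0.0999) or 2 (-0.38, adjusted p = 0.11), and without smooth muscle replicate 2 (-0.47, adjusted p = 0.0805) or 3 (-0.24, adjusted p = 0.102).

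In the list of calcium entry, release and handling, 22 of 38 tested genes were higher and 5 lower. Ano1, the calcium-activated chloride channel of vascular muscle, was at 21.6, 21.2 and 12.6 CPM in intermediate and 214, 201 and 181 CPM in smooth muscle libraries, with no overlap and a log2 fold change of 3.42 ± 0.17. Ryr2, a calcium release channel of the sarcoplasmic reticulum, was higher by 2.96 ± 0.16 and its calcium-binding partner Casq2 by 2.04 ± 0.22, and the cation channel Trpc6 went from 0.936 to 6.53 CPM. Cacna1c, the pore of the L-type calcium channel, did not pass the test at 37.9 to 42.8 CPM (0.17 ± 0.11, adjusted p = 0.224). Lower members were led by Cacna1g, a T-type calcium channel (-2.24 ± 0.15), Itpr2, an inositol trisphosphate receptor (-1.88 ± 0.10), and Piezo2, a mechanosensitive channel (-1.19 ± 0.11).

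Receptors for vasoactive signals and the cyclic GMP pathway had 34 of 55 tested members higher and 9 lower, with a median of 0.82. The angiotensin receptors differed in direction. Agtr2, the type 2 receptor that is prominent in fetal mesenchyme, was at 720.2, 757 and 639 CPM in intermediate and 67.3, 89.6 and 72.3 CPM in smooth muscle libraries. Every intermediate library exceeded every smooth muscle library, 9.23-fold on the fitted scale (adjusted p = 5.29e-11). Agtr1a, the pressor type 1 receptor, was at 12.9 ± 1.45 CPM in intermediate and 22.4 ± 1.85 CPM in smooth muscle libraries, a log2 fold change of 0.79 ± 0.14 (adjusted p = 0.000239).

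The endothelin receptors also parted: Ednra, the constrictor receptor of muscle, had a log2 fold change of -1.22 ± 0.13 (263 to 113 CPM), and Ednrb 2.52 ± 0.24 (8.30 to 47.8 CPM). The endothelin gene Edn3 was at 16.9, 16.3 and 19.6 CPM in intermediate and 1.06, 0.629 and 0.901 CPM in smooth muscle libraries, without overlap (-4.34 ± 0.22). Adra1d, an alpha-1 adrenergic receptor of the aorta, was at 0.285 to 3.53 CPM, Npy1r, the vascular receptor of neuropeptide Y, at 2.13 to 33.9 CPM, and P2rx1, the ATP-gated channel at sympathetic junctions, at 3.90 to 50.4 CPM. Ramp1, the accessory protein of the receptor for the vasodilator CGRP, had a log2 fold change of 4.12 ± 0.15, while Ramp2, its counterpart for adrenomedullin, had -2.50 ± 0.17. Among cyclic GMP genes, Npr1, the atrial natriuretic peptide receptor, differed by 2.02 ± 0.15, the guanylate cyclase subunit Gucy1a1 by 0.96 ± 0.12 and the kinase Prkg1 by 0.82 ± 0.14. With an even background subtracted, 28 members of the list were higher and 10 lower.

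Integrins and membrane-linked adhesion genes were mostly higher, with 18 of 31 higher and 6 lower (25 and 1 by library size alone). Itga8, a receptor for fibronectin and nephronectin, was at 124, 119.6 and 77.2 CPM in intermediate and 904, 895 and 497 CPM in smooth muscle libraries. The smooth muscle replicates were unequal, with replicate 3 lowest, but all were above the intermediate range (2.84 ± 0.22). Npnt, which encodes its ligand nephronectin, was higher by 3.72 ± 0.16, from 4.53 to 59.7 CPM. The laminin receptors Itga7 and Itga3 were higher by 2.68 ± 0.12 and 4.02 ± 0.16, Itga4, a receptor for VCAM1, by 2.59 ± 0.22, and the caveolin gene Cav1 by 2.08 ± 0.16. The collagen receptor Itga11 was lower (-0.93 ± 0.11), as were the fibronectin receptor chain Itga5 (-0.67 ± 0.10) and Itgav (-0.70 ± 0.15). Itgb1, the beta chain these receptors share, did not pass the test (0.23 ± 0.12, adjusted p = 0.148), but was called higher without smooth muscle replicate 3 (0.36, adjusted p = 0.00543).

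Among cell junction genes, 15 of 28 were higher and 9 lower (18 and 6 by library size alone). Mcam, the mural and endothelial adhesion molecule CD146, was at 73.02, 53.5 and 51.8 CPM in intermediate and 414, 391 and 403 CPM in smooth muscle libraries, a clear separation with a log2 fold change of 2.76 ± 0.13. Cdh6, a cadherin, was higher by 3.82 ± 0.18, and Cdh13, a cadherin anchored by lipid in vascular muscle, by 2.84 ± 0.15. The gap junction genes Gja4 and Gja5 were higher by 2.37 ± 0.25 and 2.11 ± 0.34. Cdh11, the cadherin of loose mesenchyme, was lower at -0.80 ± 0.10, and Vcam1, the ligand of alpha-4 integrin, at -1.61 ± 0.09.

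The elastic fibre list split between elastin and nearly everything that carries it. Eln, elastin, was at 20279, 19058 and 16579 CPM in intermediate and 66573, 55324 and 51997 CPM in smooth muscle libraries. Each smooth muscle library was above each intermediate one, with a log2 fold change of 1.64 ± 0.11 (adjusted p = 1.44e-08). Eln (ENSMUSG00000029675) lies at chr5:134702593-134747323, minus strand of mm10, and 267 of its 8098 exon bases overlap the antisense gene Gm30003. In the list as a whole, 3 of 22 were higher and 18 lower, with a median of -1.09. Summed without Eln, the list was at 21643 to 22264 CPM in intermediate and 8969 to 9766 CPM in smooth muscle libraries.

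The microfibril genes were lower. Mfap4, which binds elastin and fibrillin, was at 6249, 6034 and 6399 CPM in intermediate and 916, 909.8 and 994 CPM in smooth muscle libraries, and the groups lay far apart (-2.73 ± 0.09, adjusted p = 1.96e-11). Mfap5 and Mfap2, glycoproteins of the microfibril, were lower at -2.73 ± 0.11 and -2.32 ± 0.12, and Fbn1, fibrillin 1, the body of the microfibril, at -1.35 ± 0.11. The crosslinking enzymes Lox and Loxl1 were lower at -1.07 ± 0.14 and -0.80 ± 0.10. Fbln5, fibulin 5, which brings elastin and crosslinking enzyme together, was at 2744, 2588 and 2630.2 CPM in intermediate and 2593, 2408 and 2167 CPM in smooth muscle libraries. It did not pass the test (-0.15 ± 0.09, adjusted p = 0.199), and by library size alone the sign was positive. Efemp1, fibulin 3, was the largest increase of the list, with 22.7, 11.6 and 13.8 CPM in intermediate and 186, 162 and 205 CPM in smooth muscle libraries. No library of one group fell in the range of the other (3.52 ± 0.19).

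Fibrillar and associated collagens were lower for 17 of 24 tested genes and higher for 5, with a median of -1.50. Their summed level was 250286 to 281678 CPM in intermediate and 32232 to 35052 CPM in smooth muscle libraries. Col1a1, the main chain of type I collagen, was at 66063, 73529 and 63990.4 CPM in intermediate and 6449, 6495 and 7077 CPM in smooth muscle libraries. All intermediate libraries were far above all smooth muscle ones, 10.2-fold on the fitted scale (adjusted p = 7.19e-12). Col3a1, type III collagen, differed by -3.01 ± 0.10 (104693 to 12990.1 CPM) and Col1a2, the second chain of type I, by -3.03 ± 0.09. Per kilobase of exon, the order of Col1a1 and Eln turned around: Col1a1 was at 10339.9 and Eln at 2302 CPM in intermediate, and 1017 and 7158 CPM in smooth muscle.

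Col11a1, a fibril-nucleating chain best known from cartilage, was the collagen with the largest decrease, at 327, 352 and 326 CPM in intermediate and 16.1, 12.2 and 10.7 CPM in smooth muscle libraries. The groups did not approach each other (-4.69 ± 0.14, adjusted p = 7.57e-12). Col16a1, which sits on fibril surfaces, was lower at -3.11 ± 0.09, Col5a1 at -2.27 ± 0.12 and the beaded-filament chain Col6a3 at -2.46 ± 0.11. The higher members were Col8a1, a network collagen of the vessel wall (17.5 to 88.8 CPM, 2.34 ± 0.15), Col18a1, the source of endostatin (33.6 to 130.4 CPM, 1.95 ± 0.19), and the low-level genes Col25a1 (0.65 ± 0.23), Col2a1 (0.858 to 3.88 CPM) and Col10a1 (0.14 to 1.32 CPM). The call on Col25a1 was lost without intermediate replicate 1 (0.48, adjusted p = 0.142) or 2 (0.57, adjusted p = 0.0951) and without smooth muscle replicate 1 (0.48, adjusted p = 0.154) or 2 (0.71, adjusted p = 0.0504). That on Col2a1 was lost without intermediate replicate 1 (2.15, adjusted p = 0.0518) or smooth muscle replicate 1 (0.67, adjusted p = 0.323). Without smooth muscle replicate 1, 3 members were higher, and with an even background subtracted 2 were.

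Enzymes that fold and modify collagen in the endoplasmic reticulum were part of a list in which 25 of 32 genes were lower and 1 was higher (12 lower and 7 higher by library size alone). The prolyl hydroxylase P4ha2 was lower at -2.27 ± 0.10, P4ha1 at -1.63 ± 0.09, the collagen chaperone Serpinh1 at -1.37 ± 0.09 and the lysyl hydroxylase Plod2 at -1.19 ± 0.10. The general chaperone Hspa5 was at 2175 to 1489 CPM (-0.55 ± 0.10), and the stress-induced factors Xbp1 and Ddit3 were lower at -0.95 ± 0.10 and -0.77 ± 0.14. Asns, asparagine synthetase, was the higher member (6.70 to 21.3 CPM).

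**Figure D3:**
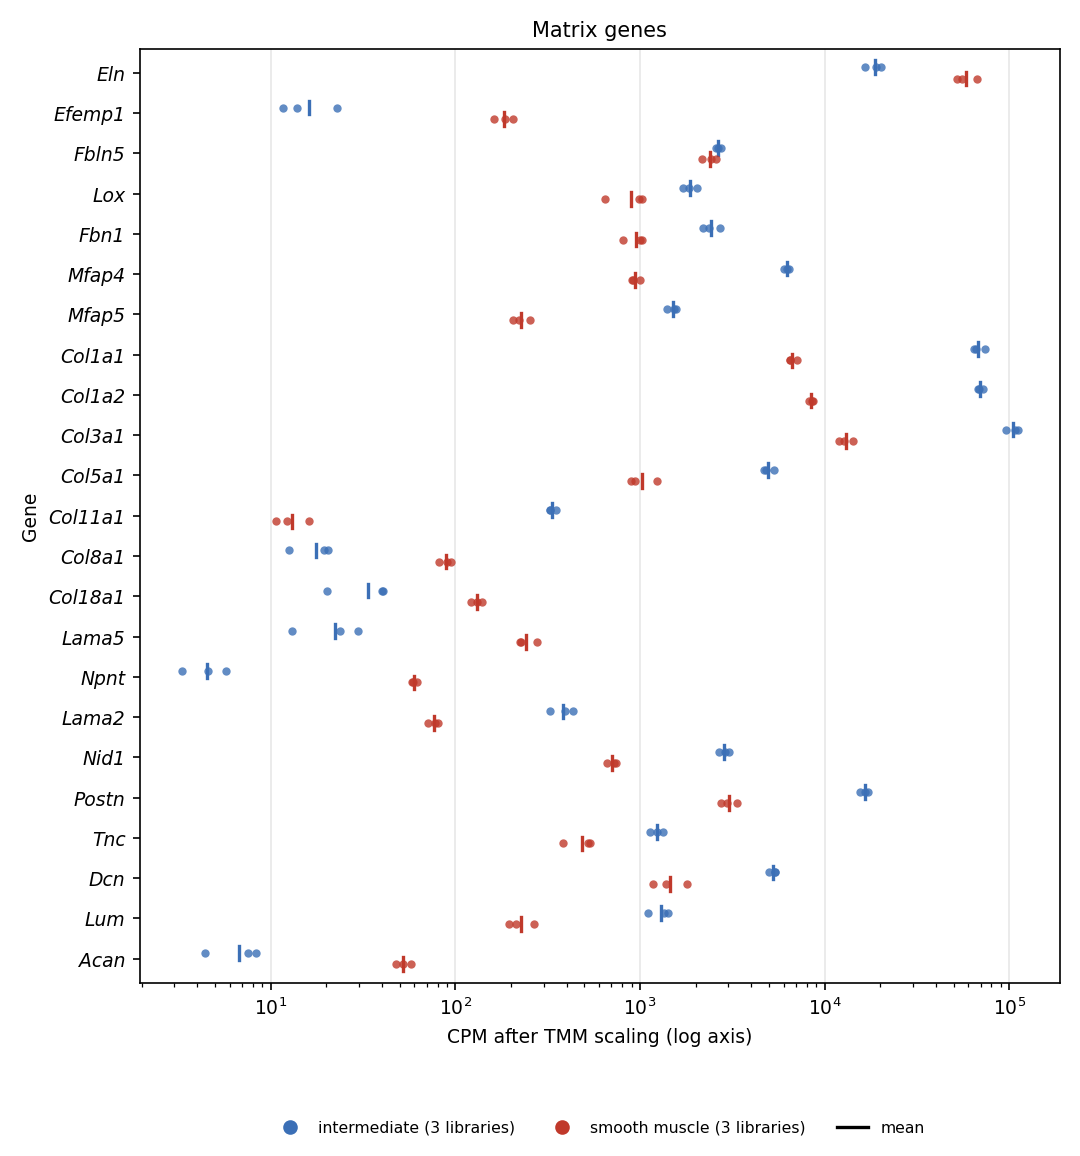
CPM after TMM scaling (log axis) of matrix genes in the 3 intermediate (blue) and 3 smooth muscle (red) libraries, with group means as bars. Eln is higher in each smooth muscle library, the fibrillar collagens and microfibril genes are lower, and Fbln5, whose sign turns by library size alone, is not separated by the test.

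The basement membrane list divided by chain. Of 26 genes, 11 were higher and 10 lower (16 and 7 by library size alone). Lama5, the laminin alpha chain of mature vessel and epithelial membranes, was at 29.7, 23.8 and 13.1 CPM in intermediate and 276, 227 and 225 CPM in smooth muscle libraries. The smooth muscle libraries formed a separate, higher range (3.45 ± 0.21). Lama2, the laminin alpha chain of skeletal muscle and nerve, was at 390.2, 435 and 326 CPM in intermediate and 80.4, 77.7 and 71.2 CPM in smooth muscle libraries, the reverse order without overlap (-2.33 ± 0.12). Nid1, the linker nidogen 1, was lower at -2.01 ± 0.09, while Nid2 was higher at 0.76 ± 0.11. The type IV collagen chains Col4a1 and Col4a2 were lower at -1.03 ± 0.11 and -1.20 ± 0.10, and Agrn, agrin, was higher at 1.42 ± 0.12. Lama5 is also expressed by mesothelium, whose markers were higher too: the list of mesothelial markers summed to 37.4 to 115 CPM in intermediate and 1520.1 to 2034 CPM in smooth muscle libraries. Their part in its level was not tested.

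Matricellular proteins, which signal from the matrix without building it, were lower for 16 of 27 genes and higher for 6 (12 and 9 by library size alone). Postn, periostin, was at 15616, 17147 and 16588 CPM in intermediate and 2746, 3354 and 2948 CPM in smooth muscle libraries, with a wide gap between groups (-2.45 ± 0.10). Tnc, tenascin C, was lower at -1.36 ± 0.12 (1235 to 482 CPM), Tgfbi at -3.23 ± 0.10 and Thbs2, thrombospondin 2, at -2.05 ± 0.13. Within the CCN family, Ccn4 was lower (468 to 117 CPM) and Ccn1 at -0.84 ± 0.09, while Ccn2, Ccn3 and Ccn5 were higher at 1.12 ± 0.11, 1.65 ± 0.12 and 1.55 ± 0.15; these signs were the same by library size alone.

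Small leucine-rich proteoglycans and hyalectans had 12 of 20 members lower and 3 higher (9 and 4 by library size alone). Dcn, decorin, which coats collagen fibrils, was lower at -1.85 ± 0.13 (5275 to 1458 CPM), Lum, lumican, at -2.52 ± 0.13 and Bgn, biglycan, at -1.73 ± 0.09. Of the large proteoglycans, Vcan, versican, was lower at -1.75 ± 0.09, and Acan, aggrecan, was higher at 2.94 ± 0.18. Acan levels were 8.35, 7.55 and 4.39 CPM in intermediate and 57.4, 47.7 and 51.7 CPM in smooth muscle libraries, without overlap. In the list of chondrocyte and tendon genes, 6 of 22 were higher and 9 lower (10 and 6 by library size alone). These counts stand beside 21.9% and 22% over all genes tested. The cartilage factors Sox5 and Sox6 were higher at 2.05 ± 0.20 and 3.53 ± 0.19, and Sox9, their partner, was lower at -1.58 ± 0.16.

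Matrix proteases and their inhibitors were lower for 18 of 31 and higher for 6 by the TMM scaling, and 14 each way by library size alone. Ctsk, cathepsin K, a collagenase, was lower at -3.15 ± 0.12 (444 to 49.9 CPM). The collagen-cleaving metalloproteinases Mmp14 and Mmp2 were lower at -1.61 ± 0.09 and -1.38 ± 0.09, and Adamts2, which trims procollagen, at -1.72 ± 0.09. Serpine2, an inhibitor of thrombin and plasminogen activators, was at 58.2, 49.1 and 30.8 CPM in intermediate and 602, 572 and 509 CPM in smooth muscle libraries, a separation of 3.60 ± 0.18 on the log2 scale.

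Hedgehog genes held the largest decrease of the whole comparison among genes of at least 5 on the mean log2 CPM scale. Hhip, a membrane protein that binds Hedgehog ligands and is induced by them, was at 578, 649 and 621 CPM in intermediate and 11.8, 14.4 and 14.3 CPM in smooth muscle libraries. Every intermediate library was more than an order of magnitude above every smooth muscle library, 45.5-fold on the fitted scale (log2 -5.51 ± 0.12, adjusted p = 1.02e-12). Hhip (ENSMUSG00000064325) lies at chr8:79965851-80058006, minus strand of mm10, and 175 of its 9076 exon bases overlap the antisense gene Gm27820.

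Most of the pathway had the same order: 10 of 13 tested members were lower and 2 higher, and 7 lower and 3 higher by library size alone. Gli1, the transcription factor that is itself a target, was at 76.3, 84.9 and 74.3 CPM in intermediate and 6.44, 7.49 and 7.35 CPM in smooth muscle libraries. The 2 groups were apart in every library, with a log2 fold change of -3.47 ± 0.12. Ptch1, the principal receptor, differed by -1.63 ± 0.10, the coreceptor Boc by -1.70 ± 0.10, the factor Gli2 by -1.53 ± 0.14 and Smo, the signal transducer, by -0.79 ± 0.10. Smaller differences were found for Sufu, the inhibitor of Gli proteins (-0.48 ± 0.13), the coreceptor Cdon (-0.46 ± 0.10) and Gli3 (-0.38 ± 0.10), all of which turn positive by library size alone. The higher members were the ligand genes Dhh, at 3.14, 1.81 and 1.46 CPM in intermediate and 4.18, 4.22 and 5.82 CPM in smooth muscle libraries, and Ihh, at 0.719, 0.0786 and 0.366 and 6.51, 4.66 and 4.64 CPM. For both the groups did not overlap, at low levels, and exons of Dhh overlap the genes Rhebl1 and Gm49442, so that its level is uncertain. Dhh is a ligand that Schwann cells make, and the summed level of Schwann and neuronal markers was 63.1 to 85.6 CPM in intermediate and 1146 to 1519 CPM in smooth muscle libraries; their part was not tested.

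**Figure D4:**
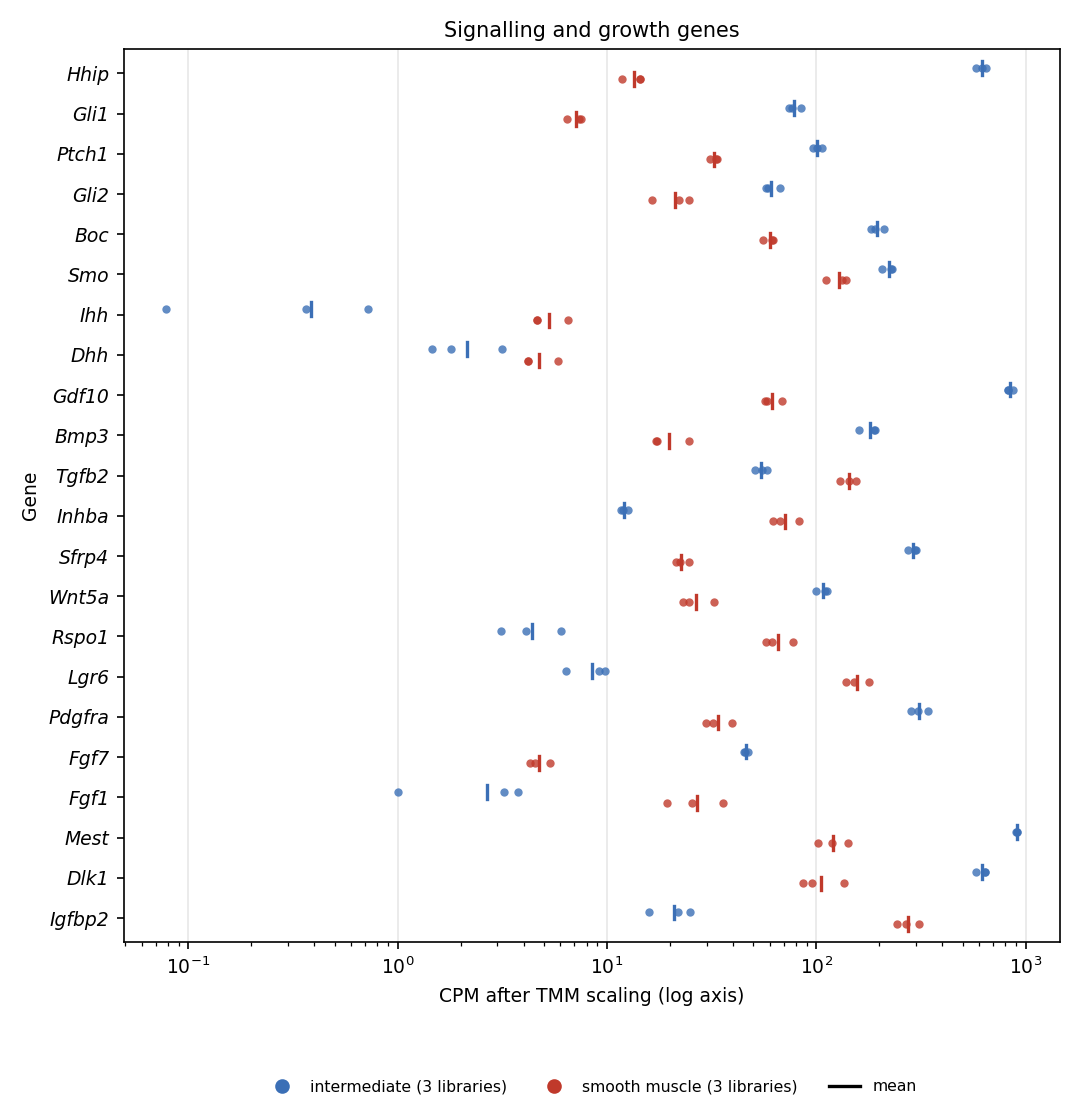
CPM after TMM scaling (log axis) of signalling and growth genes in the 3 intermediate (blue) and 3 smooth muscle (red) libraries, with group means as bars. Hhip and Gli1 are low in all smooth muscle libraries, whereas Igfbp2, Rspo1 and Lgr6 are low in all intermediate libraries; these directions are the same by library size alone.

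The TGF-beta and BMP list had 13 of 38 members higher and 13 lower (22 and 9 by library size alone), with ligands on both sides. Gdf10, a ligand of the BMP family, was at 825, 825 and 873 CPM in intermediate and 56.9, 58.1 and 68.8 CPM in smooth muscle libraries, and the lower group was far below (-3.78 ± 0.11). Bmp3, a ligand that opposes other BMPs, was lower at -3.19 ± 0.14, the BMP antagonist Chrdl1 at -2.65 ± 0.13 and the ligand Tgfb3 at -0.74 ± 0.09. Tgfb2 was higher at 1.39 ± 0.10 and Inhba, the activin A subunit, at 2.55 ± 0.13 (12.1 to 70.8 CPM). Among receptors, Tgfbr2, which binds TGF-beta first, was lower at -1.33 ± 0.10, and the coreceptor Eng at -1.92 ± 0.10, and Acvrl1, a receptor known from endothelium, at -0.96 ± 0.10.

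In the Wnt pathway, 17 of 43 genes were higher and 15 lower (25 and 9 by library size alone). Secreted antagonists led the decreases, with Sfrp4 at 300.3, 274 and 295 CPM in intermediate and 22.2, 24.6 and 21.3 CPM in smooth muscle libraries. The gap between groups was -3.67 ± 0.11 on the log2 scale, and Sfrp1 and Dkk3 were lower at -1.62 ± 0.11 and -1.23 ± 0.10. The noncanonical ligand Wnt5a and its receptor Ror2 were lower together, at -2.01 ± 0.13 and -2.11 ± 0.12. Lgr6, a receptor for R-spondins, was at 9.79, 9.20 and 6.41 CPM in intermediate and 178, 152 and 139 CPM in smooth muscle libraries, all smooth muscle values being higher (4.20 ± 0.16). The ligand gene Rspo1 was higher at 3.89 ± 0.19 and the feedback inhibitor Nkd1 at 2.50 ± 0.12. Rspo1 is also on the mesothelial list, and the part of those cells in its level was not tested.

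Growth factor genes also divided. In the PDGF, VEGF and FGF list, 16 of 37 were lower and 10 higher (9 and 18 by library size alone, so that its balance turned). Pdgfra, the receptor that marks fibroblasts and adipose progenitors, was at 305, 342 and 282 CPM in intermediate and 32.2, 39.4 and 29.7 CPM in smooth muscle libraries. Intermediate libraries were all above smooth muscle libraries, 9.17-fold on the fitted scale (adjusted p = 6.1e-11). Pdgfrb, the receptor of mural cells, was at 541, 587 and 468 CPM in intermediate and 544, 543 and 416 CPM in smooth muscle libraries. The ranges of the groups overlapped, the test was not passed (-0.09 ± 0.12, adjusted p = 0.578), and the sign was positive by library size alone and without smooth muscle replicate 3. Among ligands, Pdgfa was higher (10.8 to 43.6 CPM) and Fgf1 at 3.31 ± 0.31, while Fgf7, a fibroblast ligand for epithelia, was lower at -3.28 ± 0.14 and Vegfc, the lymphatic growth factor, at -1.32 ± 0.16. The MAP kinase feedback gene Spry1 was lower at -1.84 ± 0.23, and its relatives Spry2 and Spry4 were higher at 0.59 ± 0.15 and 0.67 ± 0.11.

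Imprinted growth genes and the IGF pathway had 17 of 26 members lower and 7 higher (12 and 7 by library size alone). Mest, an imprinted gene of growing mesenchyme, was at 912, 908 and 897 CPM in intermediate and 101, 119 and 141 CPM in smooth muscle libraries, and the ranges were well apart (-2.91 ± 0.12). Dlk1, the preadipocyte factor, was lower at -2.55 ± 0.14, Peg3 at -2.48 ± 0.10, Plagl1 at -2.13 ± 0.12 and the ligand Igf1 at -1.55 ± 0.12. The binding proteins that hold IGFs moved in both directions: Igfbp4 and Igfbp3 were lower at -1.83 ± 0.10 and -1.30 ± 0.10, and Igfbp2, Igfbp5 and Igfbp6 were higher at 3.71 ± 0.15, 2.83 ± 0.13 and 2.92 ± 0.17. Igfbp2 was at 24.97, 21.9 and 15.9 CPM in intermediate and 244, 269 and 308 CPM in smooth muscle libraries, with no overlap.

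Notch genes were called on both sides. Of 20 tested, 8 were higher and 5 lower (14 and 1 by library size alone), beside 21.9% and 22% over all genes tested. Notch3, the receptor of arterial muscle and pericytes, was at 236, 268 and 192 CPM in intermediate and 372, 359 and 261 CPM in smooth muscle libraries. The groups overlapped, since smooth muscle replicate 3 lay below the highest intermediate library. Its log2 fold change was 0.51 ± 0.14 (adjusted p = 0.00839), and without intermediate replicate 3 it was 0.35 (adjusted p = 0.0577), which ended the call. The ligand Jag1 did not pass the test (-0.15 ± 0.16, adjusted p = 0.473), and its sign was positive by library size alone and without smooth muscle replicate 3 (0.047). Among targets, Hes1 was lower at -0.92 ± 0.10, Heyl at -0.49 ± 0.11, which turns positive by library size alone, and Hey2 was higher at 0.49 ± 0.12.

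Pericyte markers did not move as 1 set, with 8 of 15 higher and 6 lower (9 and 4 by library size alone). Cspg4, the NG2 proteoglycan, was at 37.5, 40.6 and 26.8 CPM in intermediate and 369, 287 and 269 CPM in smooth muscle libraries, and each smooth muscle library was higher (3.14 ± 0.16). Rgs5, a regulator of G-protein signalling in mural cells, was higher at 0.72 ± 0.10 (344 to 566 CPM). Kcnj8, given above, and Steap4, a metalloreductase, were lower at -2.25 ± 0.14 and -1.68 ± 0.13.

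Fibroblast and progenitor markers were lower for 17 of 26 and higher for 6. Pi16, a marker of adventitial progenitors, was at 102, 96.9 and 111 CPM in intermediate and 6.94, 9.32 and 13.2 CPM in smooth muscle libraries, with all intermediate libraries higher (-3.39 ± 0.17). Dpp4, a peptidase used with Pi16 to mark interstitial progenitors, had the reverse order, at 5.75, 3.46 and 3.75 CPM in intermediate and 70.9, 85.7 and 69.9 CPM in smooth muscle libraries. Its log2 fold change was 4.13 ± 0.17 (adjusted p = 1.13e-10). Mesothelial markers were also higher in the smooth muscle libraries, and the part of those cells in the level of Dpp4 was not tested. The matrix protein Dpt was lower at -2.75 ± 0.13 and the surface marker Cd34 at -1.52 ± 0.10.

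Genes of preadipocytes and adipocytes were lower for 19 of 32 and higher for 7 (13 and 10 by library size alone). Pparg, the master factor of fat cell differentiation, was at 8.71, 9.35 and 7.14 CPM in intermediate and 4.96, 3.15 and 2.91 CPM in smooth muscle libraries, low in both and lower in each smooth muscle library (-1.20 ± 0.23). Lpl, lipoprotein lipase, was lower at -2.32 ± 0.11 (243 to 48.7 CPM), Adipoq, adiponectin, at -3.22 ± 0.29 and Cebpd, an early adipogenic factor, at -1.20 ± 0.14. Of 18 thermogenic genes tested, 8 were higher and 6 lower (11 and 4 by library size alone). Dio2, which activates thyroid hormone, was lower at -3.88 ± 0.19, and Prdm16, a brown fat factor also found in arteries, was higher at 3.48 ± 0.25 (4.13 to 46.3 CPM). Ucp1, the uncoupling protein, was at 2.16, 2.52 and 4.76 CPM in intermediate and 0.991, 1.20 and 1.52 CPM in smooth muscle libraries. Its call (log2 -1.33 ± 0.37, adjusted p = 0.00861) was lost without intermediate replicate 3 (-0.95, adjusted p = 0.0614) and by library size alone (-0.80, adjusted p = 0.076).

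Markers of sympathetic neurons, Schwann cells and mesothelium were high in the smooth muscle libraries, and 9 of the 20 largest increases were on these marker lists. Of the 20 genes with the largest increase among those of at least 5 on the mean log2 CPM scale, the leading ones included Prph, Th, Stmn2 and Stmn3, all known from sympathetic neurons. Th, tyrosine hydroxylase, the first enzyme of noradrenaline synthesis, was at 3.23, 1.26 and 0.824 CPM in intermediate and 81.4, 115 and 111 CPM in smooth muscle libraries. Each smooth muscle library was far above each intermediate library (5.86 ± 0.27, adjusted p = 3.01e-10). Dbh, the enzyme that makes noradrenaline, was higher at 5.49 ± 0.21 and its transporter Slc6a2 at 5.55 ± 0.37. The Schwann cell genes Mbp and Sox10 were higher at 4.62 ± 0.14 and 3.51 ± 0.25, while S100b, which Schwann and fat cells share, was lower at -0.84 ± 0.17 and Ngfr did not pass the test (-0.02 ± 0.18), with a positive sign by library size alone and without smooth muscle replicate 1 (0.14). In all, 18 of 20 Schwann and neuronal markers were higher and 1 was lower, the latter not called by library size alone.

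Mesothelial markers were higher for 13 of 13 genes. Msln, mesothelin, was at 29.2, 5.58 and 11.2 CPM in intermediate and 287, 283 and 429.9 CPM in smooth muscle libraries, and every smooth muscle library was far above the others (4.46 ± 0.39, adjusted p = 2.1e-07). Upk3b, a uroplakin of mesothelium, was higher at 5.06 ± 0.38, the keratin genes Krt18 and Krt19 at 5.58 ± 0.31 and 4.31 ± 0.27, and Wt1, a mesothelial factor, at 3.44 ± 0.19. Aldh1a2, the retinoic acid enzyme of embryonic mesothelium, was higher at 5.23 ± 0.20. The summed level of the list was 37.4 to 115 CPM in intermediate and 1520.1 to 2034 CPM in smooth muscle libraries, and no marker of either list was at 0 in all libraries.

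**Figure D5:**
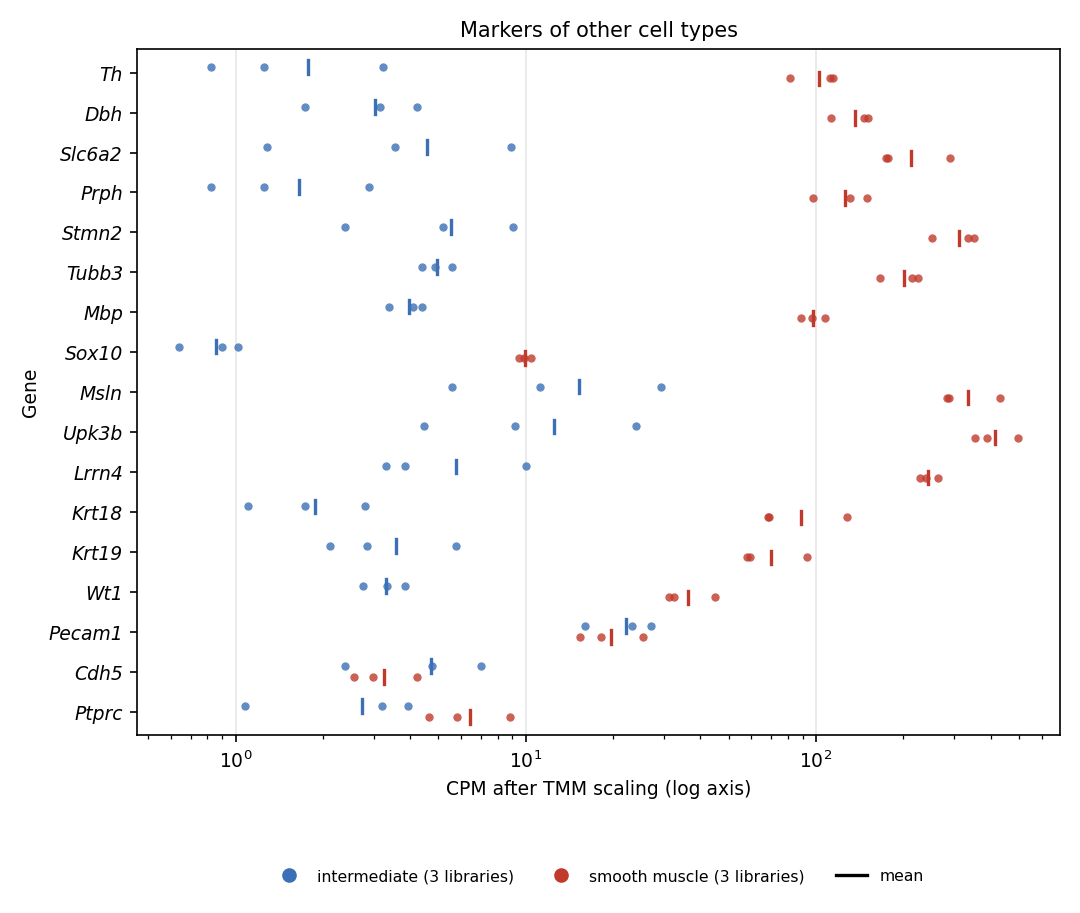
CPM after TMM scaling (log axis) of sympathetic, Schwann, mesothelial, endothelial and immune markers in the 3 intermediate (blue) and 3 smooth muscle (red) libraries, with group means as bars. Neuronal, Schwann and mesothelial genes are high in all 3 smooth muscle libraries, while the endothelial genes Pecam1 and Cdh5 overlap and change sign by library size alone.

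Endothelial markers were higher for 3 and lower for 5 of 19 tested (4 and 2 by library size alone), beside 21.9% and 22% over all genes tested. They summed to 223 to 376 CPM in intermediate and 242 to 356 CPM in smooth muscle libraries. Pecam1, the endothelial adhesion molecule CD31, was at 22.1 to 19.6 CPM and did not pass the test (-0.17 ± 0.20, adjusted p = 0.507), with a positive sign by library size alone. Cdh5, the endothelial cadherin, was at 4.71 to 3.25 CPM (-0.54 ± 0.33, adjusted p = 0.208) with the same turn of sign, and without intermediate replicate 3 it was called lower (-0.89, adjusted p = 0.0189). Esam, an adhesion molecule of endothelium, was higher at 3.02 ± 0.20, while Eng and Erg were lower at -1.92 ± 0.10 and -1.47 ± 0.21, also by library size alone. Immune markers were low, with 14 of 21 passing the filter on low counts and a summed level of 93.1 to 107 CPM in intermediate and 84.9 to 91.3 CPM in smooth muscle libraries. Of the 14 tested, 5 were higher and 4 lower (6 and 2 by library size alone), beside 21.9% and 22% over all genes tested. The smallest p was that of Cd3e, which was lower at -1.67 ± 0.19 (40.0 to 12.6 CPM), also by library size alone. Ptprc, the leukocyte antigen CD45, was at 1.08, 3.93 and 3.20 CPM in intermediate and 8.85, 5.79 and 4.64 CPM in smooth muscle libraries, a call (1.21 ± 0.36, adjusted p = 0.0124) that was lost without smooth muscle replicate 1 (0.92, adjusted p = 0.0804).

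The other decreases among the 20 largest included genes outside these lists. Tspan11, a tetraspanin, was at 437, 462 and 457 CPM in intermediate and 17.1, 18.4 and 15.7 CPM in smooth muscle libraries, and the groups were wide apart (-4.73 ± 0.11). Vipr2, a receptor for vasoactive intestinal peptide, was lower at -3.90 ± 0.12, the imprinted zinc finger gene Zim1 at -4.02 ± 0.13, and Serpinf1, which encodes the antiangiogenic factor PEDF, at -3.46 ± 0.14 (1622 to 147 CPM).

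By the TMM scaling, few cell division genes were called. In the DNA replication list, 1 of 26 was higher and 4 lower, and in the mitosis list 3 of 26 were higher and 1 lower, shares below those over all genes. By library size alone, 18 and 23 were higher. Ccne1, cyclin E1, had the smallest p of the replication list and was lower without overlap at -1.11 ± 0.12 (64.3 to 29.8 CPM). It was also called lower by library size alone (-0.57). Mki67, the proliferation antigen, was at 99.4, 95.1 and 83.5 CPM in intermediate and 122, 100.4 and 108 CPM in smooth muscle libraries, and did not pass the test (0.25 ± 0.11, adjusted p = 0.0708). It was called higher without smooth muscle replicate 2 (0.32, adjusted p = 0.0436) or 3 (0.27, adjusted p = 0.0463). Of 15 tested genes of cell cycle brakes and D cyclins, 3 were higher and 5 lower (10 and 1 by library size alone). Ccnd1, cyclin D1, was higher at 1.45 ± 0.12 (16.8 to 45.8 CPM), while the more abundant Ccnd2 and Ccnd3 were lower at -0.58 ± 0.10 (327 to 219 CPM) and -0.56 ± 0.10 (191 to 129 CPM), calls lost by library size alone. Of the cell cycle inhibitors, Cdkn1c was lower at -1.52 ± 0.14 and Cdkn1a higher at 0.62 ± 0.14. Cytosolic ribosomal protein genes also had few calls, with 0 higher and 4 lower of 48, against 44 higher by library size alone. Transcripts of the mitochondrial genome were higher for 11 of 12 genes by the TMM scaling, from 1.17-fold (mt-Cytb) to 1.84-fold (mt-Nd3). As a share of raw counts, without TMM factors, they took 0.636% to 0.754% in intermediate and 1.18% to 1.38% in smooth muscle libraries.

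Immediate early and dissociation stress genes, which sorting itself can switch on, were lower in smooth muscle for 17 of 34 and higher for 5 (6 and 20 by library size alone, so that the balance turned). Egr1 was at 4856 to 2449 CPM (-0.99 ± 0.08) and Jun at 1142 to 618 CPM (-0.89 ± 0.09), while Atf3, a stress factor, was higher at 0.73 ± 0.11.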

How the data were processed

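Poly(A) RNA of sorted cells was amplified with SMART-Seq v4 Ultra Low Input chemistry, per the labels' protocols. The submitters' processing notes name mm10, STAR 2.5.2a and DESeq2 1.26.0. How reads were counted, with which annotation and strand setting, is not given in the sources used here. Whole-number counts per gene, as the authors deposited them, were used with no change. Their normalized and log-scale tables were not used.

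Genes were named from GENCODE M21 (36480 of 36512). Low counts were removed with filterByExpr over the 6 libraries, and TMM-scaled counts went into edgeR's quasi-likelihood test (version 4.0.16, R 4.3.3, two-sided, call at an adjusted p of 0.05); the SE is the log2 fold change over the root of F. The common biological coefficient of variation was 0.123. Totals of 11701825 to 15550623 counts put the limit of a count of 0 at 0.193 to 0.256 CPM (3 counts), which covers counting error only. Replicates of 1 group were not the same library (chi-square per degree of freedom 4.39 to 15.1). In simulated counts over 19320 genes for this comparison, the test found 72 of 100 genes set to a 2-fold change and 94 of 100 set to 4-fold, and 9 of its 175 calls were false. Only these genes were changed, against 43.9% called in the data, so the figures do not bear on the choice of scaling.

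The comparison, its 47 gene lists (1320 entries; Ahsp, Hoxd4, Pitx1, Shh, Tnnc2 and Trpp3 did not match) and the genes named were chosen with earlier results of these data known. Named genes were the 20 with the largest fold change each way (adjusted p under 0.05, mean log2 CPM of at least 5, no overlap between groups, no predicted genes), up to 6 called members of each list with the smallest p, list-defining members and some fixed genes. Others were named after their values were seen. Exons of Gli1, Mfap4, Mylk, Pdgfra, Dpp4, Itga7 and other named genes overlap other genes, so their counts are less certain. Alternatives were DESeq2-type size factors, library size alone, DESeq2 1.42.0, limma 3.58.1 voom, no filter, at least 5 CPM in 3 libraries, all 12 libraries, a replicate block, leaving out each library and an even background subtracted. Protein-coding genes alone were added after seeing the data. A few genes that the rule names are not reported here.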

Additional observations from a re-analysis of the deposited data

How the results depend on the processing

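Counts of genes called were 8444 with DESeq2-type size factors, 7692 with DESeq2, 8534 with limma-voom, 9022 with no filter, 5961 at 5 CPM or more in 3 libraries, 6127 over all 12 libraries, 7048 with an even background subtracted and 7505 among protein-coding genes. By library size alone 10920 were higher and 1395 lower, and 141 of the genes called were called the opposite way. Over all 12 libraries 2781 were lower, and at 5 CPM or more 2214 were called and at least 2-fold, of fewer genes tested. Collagens higher numbered 3 at 5 CPM or more and 3 over 12 libraries, 2 with the background subtracted and 3 to 5 on leaving out each library. By library size alone 1 integrin and 0 Schwann and neuronal members were lower. Calls numbered 7055 to 8866 on leaving out each library. With the replicate number as a block, 9018 were called; same-numbered libraries' deviations correlated at -0.18, 0.06 and 0.06, so the numbers were not taken as pairs. Of log2 fold changes, the sign turned by library size alone for Pdgfrb 0.45, Heyl 0.053, Flt1 0.14, Mcm4 0.14, E2f1 0.13, Ccne2 0.18, Aurkb 0.10, Rplp1 0.061, Rplp0 0.20, Rps20 0.14, Cyp51 0.064, Msmo1 0.033, Abcc9 0.10, Cdh5 0.0026, Cdon 0.082, Fbln5 0.39, Gli3 0.15, Jag1 0.40, Klf4 0.029, Mrtfa 0.39, Ngfr 0.51, Pecam1 0.37, Srf 0.35 and Sufu 0.062. The sign turned at 5 CPM or more for Pdgfrb 0.040 and Ngfr 0.10. The sign turned with the background subtracted for Pdgfrb 0.044 and Ngfr 0.050. The sign turned over all 12 libraries for Ngfr 0.024. The sign turned among protein-coding genes for Ngfr 0.0070. On leaving out each library, values passed 0 for Pdgfrb (-0.21 to 0.038), Jag1 (-0.31 to 0.047), Ngfr (-0.19 to 0.14) and Pgm5 (-0.035 to 0.70). The cause of these changes beyond the scaling, filter or samples named was not tested. Depth limits genes near 1 CPM.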

Other observations

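Genes of retinoid metabolism were called on both sides. In smooth muscle, 6 of 21 were higher and 9 lower (7 and 4 by library size alone), beside 21.9% and 22% over all genes tested. Rbp4, the retinol carrier, was at 77.1, 74.04 and 85.6 CPM in intermediate and 7.72, 7.55 and 12.4 CPM in smooth muscle libraries, without overlap and with a log2 fold change of -3.10 ± 0.17 (edgeR, adjusted p = 1.12e-09). The receptor Rarg was lower at -1.12 ± 0.11, and Dhrs9, a retinol dehydrogenase, was higher at 4.49 ± 0.20.

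The lists of complement and inflammatory genes were mixed, with large differences in some members. C3, the central complement component, was at 102, 24.4 and 30.8 CPM in intermediate and 908, 978 and 1133 CPM in smooth muscle libraries, with all smooth muscle libraries higher (4.26 ± 0.39, adjusted p = 4.01e-07). The summed mesothelial markers were also highest in replicate 1 among intermediate libraries (115, 37.4 and 47.6 CPM). They were higher in all smooth muscle libraries, and their part in the level of C3 was not tested. Clu and C4b, of the same list, were higher at 3.53 ± 0.22 and 1.99 ± 0.16. In the complement list 6 of 18 genes were higher and 5 lower (9 and 4 by library size alone), beside 21.9% and 22% over all genes tested. Il33, an alarmin of fibroblasts, was lower at -2.34 ± 0.12, the cytokine Il6 at -1.46 ± 0.10 and the chemokine Cxcl12 at -1.37 ± 0.09, while Cxcl13 was higher at 4.05 ± 0.19. Of 27 cytokine genes, 7 were higher and 12 lower (10 and 9 by library size alone), beside 21.9% and 22% over all genes tested.

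Axon guidance genes were called in both directions, 16 of 46 higher and 17 lower (23 and 12 by library size alone). The ephrin receptor Epha3 was at 980.4, 1031 and 872 CPM in intermediate and 202, 229 and 163 CPM in smooth muscle libraries, without overlap (-2.28 ± 0.12). The ligand gene Ntn1 was lower at -1.92 ± 0.09 and Slit2 at -1.44 ± 0.13, and Ntf3, a growth factor for sympathetic neurons, was higher at 1.67 ± 0.13. Among positional genes, Isl1, a factor of autonomic neurons and heart progenitors, was higher at 5.37 ± 0.32.

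In the list of glycolysis and hypoxia, 14 of 26 genes were higher and 5 lower (20 and 2 by library size alone). Egln3, an oxygen-sensing hydroxylase, was at 2.34, 2.91 and 2.38 CPM in intermediate and 31.2, 25.4 and 43.1 CPM in smooth muscle libraries, with no overlap (3.70 ± 0.22), and Pfkp, a glycolytic enzyme, was higher at 1.87 ± 0.10. On the other side, P4ha1, given above, and Hk2 were lower at -1.63 ± 0.09 and -1.02 ± 0.16, also by library size alone. Cholesterol synthesis genes were higher for 2 and lower for 10 of 24, against 13 higher and 2 lower by library size alone, with Insig1, a sterol sensor, lower at -1.24 ± 0.10.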
